A study of Mus musculus with 73 samples.

Results

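Pou5f1_E084 is a DNA fragment from within the *Pou5f1* gene that was combined with other fragments in a massively parallel reporter assay (MPRA), and the combinations described here are those that pair it with an enhancer of another locus. They were found by name: Pou5f1_E084 stood in either position, the partner came from a different locus, and neither fragment was a control. This gave 2502 combinations, out of 62160 combinations of enhancers from different loci and 110180 combinations of any kind. They were spread over the 8 promoter libraries, from 246 with *Fgf5* to 346 with *Lefty1*, with 345 for *Ap1m1*. Across the libraries Pou5f1_E084 met 49 partners from 8 loci.

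The assay was run in E14TG2a cells, a mouse embryonic stem cell (mESC) line grown in 2i+LIF medium, into which each plasmid library was transiently transfected, with 3 biological replicates per library and RNA collected after 24 hours. Each plasmid held 1 promoter, a barcoded reporter and, behind the reporter, a pair of fragments in position 1 and position 2, each in either orientation. Of the 8 promoters, 7 belong to genes of the pluripotency network (*Sox2*, *Klf2*, *Otx2*, *Fgf5*, *Lefty1*, *Nanog* and *Tbx3*) and *Ap1m1* belongs to a housekeeping gene. Pairs were enhancer-enhancer (EE), enhancer-control (EC) or control-control (CC), where the controls were 20 randomised sequences, some scrambled from genomic DNA and some generated at random. All groups shared the same cells and medium, no agent or genotype differed between them, and the plasmids were not integrated in the genome.

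Enhancers are DNA elements that bind transcription factors and raise transcription from a promoter, largely regardless of orientation and over a range of distances. *Pou5f1* encodes Oct4, a transcription factor needed to keep embryonic stem cells pluripotent, and elements near genes of this network are typically bound by Oct4, Sox2, Nanog and Klf factors. An enhancer that is active on one promoter may have little effect on another, and promoters of housekeeping genes generally respond less than those of developmental genes.

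Pou5f1_E084 lies at chr17:35509279-35509728 (mm10), an interval of 450 bp inside the RefSeq *Pou5f1* gene, which spans 35506032 to 35510777 on the same chromosome. The interval begins 3247 bp downstream of the first annotated start of *Pou5f1* and 472 bp downstream of another annotated start. It ends 1049 bp before the end of the gene. Exon and intron boundaries were not analysed here. The fragments were PCR products, so the primers mark which stretch of DNA was tested. Those of Pou5f1_E084 are shown with those of Klf2_E058 and Nanog_E074, which it lowered with every promoter, and of Otx2_E109, which it raised with several. Each is written 5′ to 3′ in lower case, as listed by the study.
Pou5f1_E084 forward: gattagacgcttgtagcttgaactgtc
Pou5f1_E084 reverse: ggagagagcctgattgattagcaaatg
Klf2_E058 forward: cagggccataggttcagacaaag
Klf2_E058 reverse: aaggatgtttcaaactaagcctgacag
Nanog_E074 forward: ccctgtaccaaacctttgtagaacttg
Nanog_E074 reverse: ggatacaaagcccagcaaactacc
Otx2_E109 forward: tttacaaacgccagttcaagtcacatg
Otx2_E109 reverse: catctgcatacttaaatctgcgtccag
The partner intervals are chr8:72316077-72316526 for Klf2_E058, chr6:122702830-122703279 for Nanog_E074 and chr14:48654012-48654461 for Otx2_E109 (mm10), none of which overlapped a RefSeq gene. The *Ap1m1* promoter interval is chr8:72239767-72240216 and overlaps the start of *Ap1m1*. Some partner intervals overlap: those of Nanog_E073 and Nanog_E074 by 66 bp, and those of 4 other partner pairs by 63 to 123 bp. The paper placed primers within the ends of each element, so the PCR products were shorter than the intervals. The overlap of the DNA that was tested may therefore be smaller and was not determined.

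Activity is the ratio of a combination's barcode counts in cDNA to those in the plasmid DNA, as deposited for each replicate. Dividing an activity by the promoter's median CC activity in the same replicate, on the log2 scale, gives the boost index. Pou5f1_E084 was chosen by its single-enhancer boost index with *Ap1m1*, measured in EC and CC combinations, so these values stand as a description only. It was -0.62, -0.51 and -0.46 in replicates 1 to 3 (mean -0.53 ± 0.08, SD, n = 3, 140 EC combinations). With the other promoters the same fragment was near or above the controls. Its mean boost index was -0.02 ± 0.12 with *Klf2*, -0.07 ± 0.29 with *Otx2* and 0.06 ± 0.12 with *Nanog* (SD, n = 3 each). It was 1.68 ± 0.32 with *Sox2*, 1.19 ± 0.24 with *Lefty1* and 1.11 ± 0.08 with *Tbx3* (SD, n = 3 each). With *Fgf5* it was 0.60 ± 0.39 (SD, n = 3), resting on 10 EC combinations only.

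To ask what the fragment did to a partner, each EE activity was set against the median EC activity of that partner in the same position, library and replicate. The log2 ratio was averaged over the combinations of a partner and the median was taken over partners, which gave 1 value per replicate, called the effect on partners. A negative effect means that the pair was less active than the partner beside a control. Of the 2502 combinations, 2473 could be used, since 6 had an activity of 0 in some replicate and 23 lacked a reference of at least 3 EC combinations. The partners all share Pou5f1_E084 and were not counted as replicates.

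With *Ap1m1*, Pou5f1_E084 lowered its partners to 66.0% of their own activity. The effect was -0.61, -0.59 and -0.60 in the 3 replicates over 48 partners (mean -0.60 ± 0.01, SD, n = 3; limma adjusted p = 0.000111). This was the lowest value of the 58 enhancers measured with *Ap1m1*, whose effects had a median of 0.29 and reached 0.84. Enhancers generally raised their partners: of 462 enhancer-promoter combinations tested over all libraries, 91.3% were raised and 2.16% lowered. With *Ap1m1* the share raised was 75.9% and the share lowered 3.45%, which is 2 of 58 enhancers.

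The other enhancer that lowered its partners with *Ap1m1* was Nanog_E065, with a mean effect of -0.12 ± 0.05 (SD, n = 3; limma adjusted p = 0.0466). Next in order were Lefty1_E087, at -0.08 ± 0.02 (SD, n = 3; limma adjusted p = 0.108), and Sox2_E180, at -0.05 ± 0.21 (SD, n = 3; limma adjusted p = 0.631), neither of which passed the test. At the other end were Tbx3_E203 at 0.84 ± 0.10, Lefty1_E094 at 0.82 ± 0.06 and Otx2_E114 at 0.66 ± 0.05 (SD, n = 3 each). Pou5f1_E081, another fragment of the *Pou5f1* locus, had an effect of 0.47 ± 0.15 with *Ap1m1*, and Klf2_E058 one of 0.30 ± 0.13 (SD, n = 3 each).

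The lowering with *Ap1m1* ran through nearly all partners. In the fit over all directed pairs, 47 of 48 partners were lowered at an adjusted p under 0.05 and 0 were raised, against a background of 5.12% of 2736 pairs lowered and 55.6% raised with this promoter. Without the pairs of Pou5f1_E084 the share lowered was 3.46%. The enhancer with the next most lowered partners was Nanog_E065, with 12 of 50. All 48 partners of Pou5f1_E084 were below their EC reference in each of the 3 replicates, between -0.88 and -0.41 as the mean of replicates.

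The partners at the low end came from several loci. Klf2_E046 was at -1.09, -0.79 and -0.76 in the 3 replicates over 4 combinations. Sox2_E182 was at -0.96, -0.75 and -0.89 over 8 combinations. Nanog_E074 was at -0.72, -0.85 and -0.86. The replicate ranges of these partners overlapped each other and those of Nanog_E090 (mean -0.81 ± 0.03) and Nanog_E073 (mean -0.78 ± 0.11, SD, n = 3 each). At the high end Nodal_E156 was at -0.35, -0.43 and -0.46. Nanog_E065 was at -0.53, -0.51 and -0.21, and lost its call without replicate 1 or 2 (-0.36 and -0.37, limma adjusted p = 0.0611 and 0.0689). Fgf5_E036, Otx2_E110 and Tbx3_E205 had means of -0.45, -0.47 and -0.47. The only partner that did not pass was Lefty1_E086, at -0.42, -1.15 and -0.09 over 4 combinations (limma adjusted p = 0.0756).

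Both strong and weak partners were lowered with *Ap1m1*, the strong ones by somewhat more. The partners with the 3 highest single-enhancer boost indices were Klf2_E046 (boost index 1.12), Lefty1_E094 (0.96) and Tbx3_E203 (0.91). Their effects were -0.88, -0.58 and -0.59. The 24 partners with the lower boost indices had a median effect of -0.56 ± 0.01 and the 24 with the higher ones of -0.65 ± 0.01 (SD, n = 3 each), lower in each replicate. By locus, the median effect ran from -0.71 for the 7 Nanog partners to -0.50 for the 6 Nodal partners, and was below 0 in each replicate for all 8 loci. The median boost index of a partner was 0.43 and that of the pairs -0.15, and 27 of the 48 pairs were below the CC baseline in all 3 replicates. The same count was not made for pairs of other enhancers.

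The pair with Klf2_E058, an enhancer of the *Klf2* locus, shows the scale in activity units. With *Ap1m1*, the CC baseline was 0.630, 0.535 and 0.597 in the 3 replicates. Klf2_E058 beside a control had a median activity of 0.786, 0.837 and 0.735 in position 1 and of 1.06, 0.961 and 0.917 in position 2. Its 8 combinations with Pou5f1_E084 had mean activities from 0.423 to 0.698. The 4 combinations with Pou5f1_E084 in position 1 were the higher ones, from 0.544 to 0.698, and the 4 with it in position 2 ran from 0.423 to 0.470. All 8 were below the reference of Klf2_E058 for their position.

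With *Klf2*, *Otx2* and *Nanog* the partners were lowered by less. The effect with *Klf2* was -0.22, -0.33 and -0.16 in the 3 replicates over 49 partners (limma adjusted p = 0.00867). With *Otx2* it was -0.39, -0.40 and -0.21 over 48 partners (limma adjusted p = 0.00321). With *Nanog* it was -0.29, -0.28 and -0.17 over 48 partners (limma adjusted p = 0.00475). Pou5f1_E084 had the lowest effect of 58 enhancers with *Klf2* and the second lowest with *Otx2* and *Nanog*, where Otx2_E110 was lower.

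Single partners with these promoters were lowered or not called, with few exceptions. With *Klf2*, 26 of 49 were lowered and 0 raised, against 3.56% of all pairs lowered and 70.7% raised. With *Otx2*, 29 of 48 were lowered and 0 raised, against 3.94% and 70.3%. With *Nanog*, 27 of 48 were lowered and 3 raised, against 4.82% and 71.2%. The 3 raised partners were Lefty1_E086 (0.88, 1 combination), Otx2_E109 (0.34) and Nodal_E157 (0.20), chosen after their values were seen. Without replicate 1 or 2 the number lowered with *Klf2* was 17 or 15, and without replicate 2 the number raised with *Nanog* was 1. Nodal_E157 with *Nanog* did not pass without any 1 of the replicates, at 0.17 to 0.24. Otx2_E110 lowered 26 of 38 partners with *Otx2* and 29 of 49 with *Nanog*. The lowest partner was Nanog_E074 with *Klf2* (-0.85), Nanog_E073 with *Otx2* (-1.16) and Nodal_E159 with *Nanog* (-0.97). The highest with *Klf2* was Otx2_E109 (0.17, limma adjusted p = 0.179) and with *Otx2* Fgf5_E036 (0.11, limma adjusted p = 0.293), neither of which passed the test.

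With *Sox2*, *Fgf5*, *Lefty1* and *Tbx3* the median partner was raised. The effect was 0.89, 0.69 and 1.08 with *Sox2* over 44 partners (limma adjusted p = 0.000408). With *Fgf5* it was 1.01, 0.85 and 0.80 over 38 partners (limma adjusted p = 0.000111). With *Lefty1* it was 0.53, 0.60 and 0.78 over 48 partners (limma adjusted p = 0.00047). With *Tbx3* it was 0.52, 0.43 and 0.80 over 48 partners (limma adjusted p = 0.00184). With no averaging per partner the effect was 0.41 with *Lefty1* (limma adjusted p = 0.00229) and 0.41 with *Tbx3* (limma adjusted p = 0.0103). These values were within the range of other enhancers, where Pou5f1_E084 ranked 25 of 58 from the bottom with *Sox2*, 25 of 57 with *Fgf5*, 15 of 58 with *Lefty1* and 12 of 58 with *Tbx3*. These 4 promoters had the lowest CC baselines, with mean log2 activities from -3.49 (*Lefty1*) to -2.11 (*Fgf5*), against -0.77 for *Ap1m1*.

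Within these 4 libraries some partners were nonetheless lowered. The counts were 8 lowered and 32 raised of 44 with *Sox2*, 5 and 25 of 38 with *Fgf5*, 9 and 32 of 48 with *Lefty1*, and 8 and 32 of 48 with *Tbx3*. The background share lowered was 1.11% with *Sox2*, 1.53% with *Fgf5*, 1.90% with *Lefty1* and 1.35% with *Tbx3*, and the share raised was 84.4%, 73.6%, 84.4% and 85.1% in the same order. Other enhancers lowered partners here too: Lefty1_E087 lowered 14 of 44 with *Lefty1*, 7 of 35 with *Tbx3* and 3 of 26 with *Sox2*, and Nodal_E162 lowered 6 of 39 with *Fgf5*. Without replicates 1, 2 and 3 in turn the number lowered with *Sox2* was 4, 4 and 5, and without replicate 1 or 2 that with *Tbx3* was 5. The lowered partners had high boost indices of their own: from 3.60 to 4.54 with *Sox2*, 3.22 to 3.93 with *Fgf5*, 3.14 to 4.79 with *Lefty1* and 3.25 to 4.34 with *Tbx3*. The raised partners lay at or below 3.09, 1.99, 2.68 and 2.37 in the same order. In each of these libraries the boost indices of lowered and raised partners did not overlap. Whether they overlapped for other enhancers was not examined. Effects of other enhancers also fell as the partner's boost index rose. Their median Pearson's r over partners was -0.89 with *Sox2*, -0.83 with *Fgf5*, -0.86 with *Lefty1* and -0.84 with *Tbx3*. The split is therefore not given as particular to Pou5f1_E084. The partner's EC reference enters both the boost index and the effect, so noise in it would move them in opposite directions.

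Across partners, the effect fell as the partner's boost index rose. Pearson's r over partners was -0.95 with *Sox2* (n = 44), -0.92 with *Lefty1* (n = 48), -0.90 with *Tbx3* (n = 48) and -0.91 with *Fgf5* (n = 38). It was -0.81 with *Klf2* (n = 49), -0.75 with *Nanog* (n = 48), -0.73 with *Otx2* (n = 48) and -0.49 with *Ap1m1* (n = 48). These are descriptions over partners that share 1 fragment, 1 library and the reference. Other enhancers showed the same sign, with median r from -0.89 with *Sox2* to -0.28 with *Ap1m1*.

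The partners that were lowered recurred between libraries. Klf2_E058, Lefty1_E085, Nanog_E074, Nodal_E159 and Sox2_E180 were lowered with all 8 promoters. Nanog_E074 and Sox2_E180 passed with all 8 without any 1 of the replicates. The other 3 each lost a call: Klf2_E058 with *Fgf5* without replicate 1 or 3 (-0.45 and -0.41, limma adjusted p = 0.0869 and 0.0684), Lefty1_E085 with *Sox2* without replicate 1 and with *Tbx3* without replicate 1 or 2, and Nodal_E159 with *Sox2* without replicate 1 or 2. For Nanog_E074 the effect ran from -0.64 with *Sox2* to -0.95 with *Otx2*, and for Klf2_E058 from -0.51 with *Fgf5* to -0.83 with *Otx2*. In total 9 partners were lowered with at least 1 of the 4 promoters with low baselines. Of the 48 partners measured with all of *Ap1m1*, *Klf2*, *Otx2* and *Nanog*, 18 were lowered with all 4. Such recurrence was not counted for other enhancers, so these counts have no background beside them. With the promoters of low baseline the lowest partner was Nodal_E159 with *Sox2* (-0.37, -0.34 and -1.28 in the 3 replicates, mean -0.66, 4 combinations, limma adjusted p = 0.0457) and Nanog_E074 with *Fgf5* (-0.75), *Lefty1* (-0.86) and *Tbx3* (-0.69). Without replicate 3 the mean of Nodal_E159 with *Sox2* was -0.35, and Nanog_E074 was lower, at -0.66. The highest partner was Nodal_E157 with *Sox2* (1.78, 8 combinations) and Otx2_E109 with *Fgf5* (2.59, 4 combinations). With *Lefty1* and *Tbx3* it was Fgf5_E037 (1.50 and 1.37, 4 combinations each). Otx2_E109 beside a control was itself below the CC baseline with *Fgf5* (boost index -0.97). The effect also varied with position and orientation, so partners with fewer than 8 combinations are not fully comparable with the rest.

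The Klf2_E058 pair with *Lefty1* gives these values as activities. The CC baseline was 0.0945, 0.0885 and 0.0841 in the 3 replicates. Beside a control, Pou5f1_E084 had a mean activity of 0.268 in position 1 and 0.146 in position 2, and Klf2_E058 had 2.565 and 2.35. The 8 combinations of the pair had mean activities from 1.05 to 2.72, and 7 of them were below the reference of Klf2_E058 for their position. The exception, at 2.72, had Klf2_E058 in position 1 and both fragments on the plus strand. The pair was thus far above the baseline and above Pou5f1_E084 alone, while its mean effect on Klf2_E058 was -0.72 ± 0.02 (SD, n = 3; limma adjusted p = 0.000549).

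*Ap1m1* was compared with the mean of the other 7 promoters in 1 model over the 24 library replicates. The effect of Pou5f1_E084 on partners was lower with *Ap1m1* by 0.91 (log2 difference -0.91, SE 0.08; limma adjusted p = 7.43e-10), with means of -0.60 and 0.31. This difference was common among enhancers: 84.2% of the 57 enhancers measured in all libraries were lower with *Ap1m1* and 1.75% higher, and Pou5f1_E084 ranked 20 from the bottom. Against *Klf2*, *Otx2* and *Nanog* alone, a split made after the values were seen, the difference was -0.33 (SE 0.05; limma adjusted p = 8.41e-05), and 61.4% of enhancers were lower and 8.77% higher. Against the 4 promoters with low baselines, a split also made after the values were seen, it was -1.35 (SE 0.09; limma adjusted p = 3.54e-09). The median of this last difference over the 57 enhancers was -0.82, and Pou5f1_E084 again ranked 20 from the bottom. Each library was transfected separately, so promoter and library cannot be told apart.

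Over both orientations together, the position of Pou5f1_E084 changed its effect with every promoter. Position 1 minus position 2 was 0.27, 0.44 and 0.27 in the 3 replicates with *Ap1m1* (mean 0.32, SE 0.05; limma adjusted p = 0.00365). The difference was largest with *Fgf5* and *Lefty1*, at 0.86 each, and lay between 0.41 and 0.77 with the other 5 promoters. All 8 values were above 0 in each replicate and passed the test, against a background of 36.3% of enhancer-promoter combinations that were higher in position 1 and 26.5% that were lower. Pou5f1_E084 had the largest such difference of all enhancers with every promoter but *Sox2*, where it ranked 5 of 58. The gap lay mainly on the plus strand. On the minus strand, position 1 and position 2 were at -0.75 and -0.83 with *Ap1m1*, -0.46 and -0.53 with *Klf2*, and 0.64 and 0.55 with *Fgf5*. They were at 0.48 and 0.23 with *Lefty1*, -0.35 and -0.50 with *Nanog*, and -0.49 and -0.70 with *Otx2*. With *Sox2* (0.51 and 0.62) and *Tbx3* (0.27 and 0.38) position 1 was lower. These gaps were not tested.

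Orientation also mattered. The effect on the plus strand minus that on the minus strand was 0.39, 0.29 and 0.42 with *Ap1m1* (mean 0.37, SE 0.03; limma adjusted p = 0.00161), and ran from 0.20 with *Lefty1* to 0.55 with *Klf2*. All 8 promoters passed the test, against a background of 31.6% higher and 30.7% lower. Leaving out replicate 1 ended the call with *Fgf5* (0.32, limma adjusted p = 0.105) and *Lefty1* (0.19, limma adjusted p = 0.105), and leaving out replicate 2 that with *Lefty1* (0.16, limma adjusted p = 0.0707).

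Position and orientation were then combined, a division chosen after the values were seen. In position 1 on the plus strand, the effect with *Ap1m1* was -0.19, -0.13 and -0.14 over 48 partners (mean -0.15; limma adjusted p = 0.0248). In the other 3 configurations it was -0.75 (position 1, minus), -0.72 (position 2, plus) and -0.83 (position 2, minus), each the lowest of all enhancers in that configuration. The value of that configuration did not pass without any 1 of the replicates, with -0.14 and an adjusted p of 0.112 without replicate 1, -0.16 and 0.0672 without replicate 2, and -0.16 and 0.0777 without replicate 3 (limma).

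With *Klf2* and *Nanog* the sign differed between configurations. In position 1 on the plus strand Pou5f1_E084 raised its partners, by 0.33 with *Klf2* (limma adjusted p = 0.00292) and by 0.25 with *Nanog* (limma adjusted p = 0.0086). In the remaining configurations the effects were -0.46, -0.37 and -0.53 with *Klf2* and -0.35, -0.68 and -0.50 with *Nanog*, in the order used above, and all passed the test. With *Otx2* the effect was 0.17 in position 1 on the plus strand (limma adjusted p = 0.0616) and -0.49, -0.59 and -0.70 in the others. The background share lowered was 1.36% for position 1 plus, 2.64% for position 1 minus, 3.92% for position 2 plus and 3.06% for position 2 minus, and the share raised was 83.4%, 87.7%, 83.9% and 89.7%.

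With the 4 promoters of low baseline, position 1 on the plus strand gave the highest effect as well. It was 1.41 with *Sox2*, 1.50 with *Fgf5*, 1.31 with *Lefty1* and 1.28 with *Tbx3*. The other 3 configurations lay between 0.51 and 0.62 with *Sox2*, between 0.25 and 0.64 with *Fgf5*, between -0.12 and 0.48 with *Lefty1* and between -0.24 and 0.38 with *Tbx3*. Position 2 on the plus strand was at -0.12 with *Lefty1* (limma adjusted p = 0.315) and at -0.24 with *Tbx3* (limma adjusted p = 0.0523), and neither passed the test.

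Within position 1, the plus strand exceeded the minus strand by 0.59 with *Ap1m1* to 1.01 with *Tbx3*, and all 8 differences passed the test (background 22.8% higher and 22.3% lower). Pou5f1_E084 had the largest of these differences among all enhancers with every promoter but *Sox2*, where it ranked 2. Partner by partner, 41 of the 47 partners with both orientations measured in position 1 with *Ap1m1* were higher on the plus strand in all 3 replicates, and 1 was lower in all 3. With *Tbx3* the counts were 44 of 46 and 0. Partners were not counted in this way for other enhancers, so these counts have no background beside them. Leaving out replicate 2 left these differences between 0.57 and 0.95 but moved all 8 adjusted p-values above the threshold, to between 0.0509 and 0.0634 (limma).

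Within position 2 the orientation difference was of mixed sign. It was -0.62 with *Tbx3* (limma adjusted p = 0.00085), -0.34 with *Lefty1* (limma adjusted p = 0.00815) and -0.17 with *Nanog* (limma adjusted p = 0.0273), and 0.11 with *Otx2* (limma adjusted p = 0.0472). With *Ap1m1*, *Klf2*, *Sox2* and *Fgf5* it did not pass the test, with *Ap1m1* at 0.12 (95% interval -0.07 to 0.31). Over all enhancer-promoter combinations, 30.7% were called higher and 32% lower on the plus strand in position 2. The difference between the orientation effects of position 1 and position 2 passed with all 8 promoters, from 0.48 with *Ap1m1* to 1.62 with *Tbx3* (background 27.9% higher and 24.4% lower).

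The single-enhancer boost index of Pou5f1_E084 is given here as a description. Its mean over replicates was also highest in position 1 on the plus strand with every promoter. With *Fgf5*, position 2 on the plus strand had no usable EC combination. There, position 1 plus was at 1.12, 0.86 and 0.29 in the 3 replicates over 5 EC combinations. Position 2 minus was at 0.30, 1.06 and 0.36 over 3, so the order with *Fgf5* was not the same in each replicate. The order of the remaining configurations with *Ap1m1* was not that of the effects. With *Ap1m1* the boost index was -0.11 in position 1 on the plus strand, over 38 EC combinations, and -0.70, -0.77 and -0.57 in the remaining configurations. With *Tbx3* the values were 1.91 against 0.83, 0.34 and 1.16. The orientation of the partner made less difference: with *Ap1m1* the effect was -0.58 ± 0.01 with the partner on the plus strand and -0.61 ± 0.02 with it on the minus strand (SD, n = 3 each).

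The pairs were last set against the sum and the product of the 2 single activities over the baseline, as a description, since both hold the value that drew attention to the fragment. With *Ap1m1*, the median log2 ratio of observed to additive activity was -0.26 ± 0.02 and that to multiplicative activity -0.13 ± 0.04 (SD, n = 3 each). With *Sox2*, *Lefty1* and *Tbx3* the median pair lay near the additive value, at -0.02 ± 0.05, -0.03 ± 0.09 and -0.04 ± 0.09 (SD, n = 3 each), but partners went both ways. In all 3 replicates 14 partners were above and 17 below it with *Sox2* (of 44), 15 and 18 with *Lefty1* and 14 and 16 with *Tbx3* (of 48 each). The medians against the multiplicative value were -0.78, -0.59 and -0.60. With *Klf2*, *Otx2* and *Nanog* they were below the additive value by -0.27, -0.34 and -0.33. With *Fgf5* they were above it by 0.38 ± 0.10 and above the multiplicative value by 0.37 ± 0.13 (SD, n = 3 each). The reference of Pou5f1_E084 rests on the fewest EC combinations with this promoter. The paper reported that with *Fgf5* both models gave too low an expectation at low activities. It proposed the sparse data, with a baseline from 23 CC combinations, as the likely reason, which was not tested here.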

How the data were processed

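The values are the deposited activities of each combination in each of 3 biological replicates per library, a ratio of cDNA to plasmid DNA barcode counts computed by the authors and averaged over barcodes. Per the submitters' notes, reads were aligned with Bowtie2 and coordinates follow mm10. The barcode and read counts behind a ratio were not used here, so its depth is unknown and no counting interval is given. Columns with the authors' own baselines, boost indices and expected activities were not used. The 48 cDNA samples are replicates 1 to 3 of 8 libraries, each sequenced in more than 1 run and joined by the authors.

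Controls were recognised by the control label of a fragment. Activities were taken as log2 without a pseudocount, leaving out combinations at 0. A reference needed at least 3 EC combinations, and an enhancer at least 5 partners. Tests used limma 3.58.1 in R 4.3.3 (two-sided, on 1 value per replicate), fitted over all enhancers or all directed pairs of different loci, with Benjamini-Hochberg adjustment and a threshold of 0.05. The steps were also run on simulated activities, in which an enhancer in a given configuration had the same log2 effect on every partner. The measured effects varied with the partner's strength, so that run does not cover this dependence. The tests measure the spread between replicates, transfected on different days, for these plasmids, not the spread between fragments.

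Named with *Ap1m1* were the 5 lowest and 5 highest partners and those with the 3 highest boost indices, with each other promoter the lowest and highest partner, and the 3 lowest and 3 highest enhancers, Pou5f1_E081 and Klf2_E058. The members and lists were chosen with earlier results of these data known. RefSeq genes are those of GRCm38.p6. Alternatives covered the reference, the filters, the summary over partners, the prior, the libraries used and each replicate left out. Tables were prepared with Python 3.11.15, pandas 2.3.3 and numpy 2.4.6.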

Additional observations from a re-analysis of the deposited data

Results flagged for a closer look

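The effect of Pou5f1_E084 on partners differed between promoters by a test of the difference itself: *Ap1m1* minus the mean of the other 7 promoters was -0.91 on the log2 scale (SE 0.08; limma adjusted p = 7.43e-10). Of the 57 enhancers measured in all libraries, 84.2% were lower with *Ap1m1*, and Pou5f1_E084 ranked 20 from the bottom. Its effect was below 0 in all 3 replicates with *Ap1m1*, *Klf2*, *Otx2* and *Nanog*. It was above 0 in all 3 with *Sox2*, *Fgf5*, *Lefty1* and *Tbx3*.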

How the results depend on the processing

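The effect on partners kept its sign and stayed past the threshold under every alternative run and without each replicate, with all 8 promoters. With *Ap1m1* it ranged from -0.63 to -0.56 over the alternatives and from -0.60 to -0.59 without single replicates. The range over the alternatives that keep all replicates was -0.27 to -0.20 with *Klf2*, -0.41 to -0.29 with *Otx2*, -0.35 to -0.20 with *Nanog*, 0.67 to 0.93 with *Sox2*, 0.73 to 1.11 with *Fgf5*, 0.41 to 0.70 with *Lefty1* and 0.41 to 0.64 with *Tbx3*, the lowest of the last 2 with no averaging per partner. Without single replicates it ranged from -0.27 to -0.19 with *Klf2*, -0.40 to -0.30 with *Otx2*, -0.28 to -0.22 with *Nanog*, 0.79 to 0.98 with *Sox2*, 0.82 to 0.93 with *Fgf5*, 0.56 to 0.69 with *Lefty1* and 0.47 to 0.66 with *Tbx3*. The difference of *Ap1m1* from the other promoters was -0.91 with the replicate block, -0.81 without the *Fgf5* library, and -0.96 to -0.86 without single replicate numbers. Leaving out other libraries, chosen after seeing the data, gave -1.02 (without *Otx2*) to -0.81 (without *Sox2*). The replicate numbers do not clearly pair the libraries: deviations of same-numbered replicates correlated with a mean r of 0.51 over 84 pairs but fell to -0.46, while 23 of 24 library replicates correlated best, on average, with their own number. The block changed no call. Position differences without single replicates ran from 0.27 to 0.35 with *Ap1m1* and orientation differences from 0.16 to 0.26 with *Lefty1* and 0.23 to 0.42 with *Fgf5*. Using only partners with all 8 combinations measured, chosen after seeing the data and leaving fewer partners to test, the numbers lowered were 31 of 31 with *Ap1m1*, 16 of 24 with *Klf2*, 15 of 20 with *Nanog*, 5 of 27 with *Lefty1*, 5 of 22 with *Tbx3*, 4 of 16 with *Sox2* and 1 of 10 with *Fgf5*, and the numbers raised were 10 of 16 with *Sox2*, 7 of 10 with *Fgf5*, 20 of 27 with *Lefty1*, 15 of 22 with *Tbx3* and 1 of 20 with *Nanog*. With at least 10 EC combinations behind a reference, 3 were lowered with *Fgf5*. Without single replicates, 46 to 48 partners were lowered with *Ap1m1*, 15 to 23 with *Klf2*, 20 to 36 with *Otx2*, 18 to 24 with *Nanog*, 4 to 5 with *Sox2*, 4 to 5 with *Fgf5*, 8 to 9 with *Lefty1* and 5 to 8 with *Tbx3*, and 1 to 2 were raised with *Nanog*. Depth per combination is unknown, and the *Fgf5* library, with 23 CC combinations, has the least precise baseline.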

Other observations

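The other fragments of the *Pou5f1* locus were outside the comparisons above. With *Ap1m1*, all 8 of them measured beside Pou5f1_E084 were below their EC reference in each of the 3 replicates, with means from -0.79 (Pou5f1_E081) to -0.48 (Pou5f1_E077). Pou5f1_E081 was below its reference in every replicate with all 8 promoters, from -0.54 with *Sox2* to -0.79 with *Nanog*. With *Sox2*, *Fgf5*, *Lefty1* and *Tbx3* each of the other *Pou5f1* fragments measured had a mean above 0.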
